A study of Caenorhabditis elegans with 2 samples.

Results

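spd-5, npp-6, atx-2 and ecps-1 are 4 of the 19973 nuclear protein-coding genes of the nematode Caenorhabditis elegans and form 2 pairs of neighbours that are read away from each other. They were chosen because a strong binding peak of the T-box protein TBX-11 lies between or beside the starts of each pair, so their possession of a peak is a property of the choice and was not tested. The binding was mapped by chromatin immunoprecipitation and sequencing (ChIP-seq) in 2 biological replicates of 1 group, whole early embryos labelled as 1 hour old and obtained by egg bleaching. All embryos were of strain OP368, genotype wgIs368 with tbx-11:TY1 EGFP 3xFLAG on a trimmed fosmid and the rescue gene unc-119(+), in the mutant background unc-119(tm4063). TBX-11 was therefore measured as a tagged protein from an added gene copy, pulled down with an antibody against GFP according to the sample description, while the antibody field of the labels names tbx-11. Chromatin was sonicated to 200 to 800 bp. The peak lists hold no expression values, so the labelled stage could not be checked against marker genes, and whole embryos do not show in which cells a site was bound.

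T-box proteins are transcription factors that bind DNA through a conserved domain, and in C. elegans many of them act in the embryo. SPD-5 is a coiled-coil protein that forms the scaffold of the pericentriolar material, the matrix from which embryonic centrosomes grow microtubules. NPP-6 is a nucleoporin of the Y complex, the outer ring of the nuclear pore. ATX-2 is the worm ataxin-2, a cytoplasmic RNA-binding protein that acts in the germ line and the early embryo. ECPS-1 is the worm counterpart of human ECPAS, an adaptor and scaffold of the proteasome. Genes read away from each other from close starts can be served by 1 stretch of regulatory DNA, and a peak between such starts cannot be assigned to either gene from binding data alone.

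Coordinates are on WBcel235 (ce11) with the Ensembl release 115 annotation. The gene ecps-1 (WBGene00008422) occupies III:10452753-10460551 on the minus strand and atx-2 (WBGene00000231) occupies III:10461389-10468051 on the plus strand, with starts 838 bp apart. The strong peak between them ran over III:10461237-10461425. Its bases up to the last one before the atx-2 start are printed first below, from the RefSeq genome of the same assembly, because the summit in every list fell inside the 27 bp set in capitals, a stretch that has a close copy beside the strong summit of spd-5 and npp-6. The next line gives 151 bases around the second and weaker summit between atx-2 and ecps-1, with the letters CTGCGTC in capitals, a word found at other promoter peaks. Both lines are read on the plus strand, toward atx-2.
atx-2/ecps-1 strong peak, III:10461237-10461388: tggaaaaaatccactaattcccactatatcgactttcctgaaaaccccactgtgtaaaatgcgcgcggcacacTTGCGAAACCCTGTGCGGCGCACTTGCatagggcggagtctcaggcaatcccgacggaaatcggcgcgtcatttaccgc
atx-2/ecps-1 second peak, III:10460719-10460869: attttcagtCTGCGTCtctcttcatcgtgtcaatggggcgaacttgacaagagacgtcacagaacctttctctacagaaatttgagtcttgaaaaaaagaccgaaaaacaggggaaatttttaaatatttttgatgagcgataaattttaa

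The gene spd-5 (WBGene00004955) occupies I:5171275-5176654 on the minus strand and npp-6 (WBGene00003792) occupies I:5176829-5182801 on the plus strand, so that 175 bp separate their starts.

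The authors deposited 8 peak lists. The conservative thresholded list of both replicates, with 882 peaks, was the main list. A further thresholded list of both replicates held 1042 peaks, replicate 1 alone gave 561 and replicate 2 alone gave 467. Each has a longer ranked list of candidates behind it, with 87796, 105251, 55301 and 45180 entries. Each peak comes with a signal, the peak strength the authors computed, whose scale the sources leave out and which may differ between lists. It also has a score up to 1000 for the irreproducible discovery rate, a measure of the agreement in rank between paired analyses, and thresholded peaks scored at least 830. No read counts are in the lists, so the depth is unknown.

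All 4 genes had a summit from 1000 bp upstream to 500 bp downstream of the gene start in all 4 thresholded lists. Of all protein-coding genes, 2.45% had one in the conservative list, 2.75% in the other pooled list, 1.53% in replicate 1 and 1.21% in replicate 2. The members were chosen on this measure, so nothing is read from the contrast. Each pair shared its strong summit.

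The strong summit of spd-5 and npp-6 had a signal of 147 in replicate 1, 128 in replicate 2 and 267 in the conservative list, each with the highest score, 1000. These values ranked 105 of 561, 78 of 467 and 89 of 882. The 2 replicates therefore placed the peak at nearly the same height, within the top 18.7% and the top 16.7% of their lists. In the conservative list the peak covered I:5176351-5176472, a width of 122 bp, against 320 bp in replicate 1 and 270 bp in replicate 2. These replicate widths equal the median widths of their thresholded lists, in which 14.3% and 20.1% of peaks were narrower. Among the candidates the peak ranked 138 of 55301 in replicate 1, 123 of 45180 in replicate 2 and 129 in both pooled lists.

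This summit does not lie between the starts of spd-5 and npp-6. At position 5176406 it was 248 bp downstream of the spd-5 start, inside an intron of the longer spd-5 transcript, F56A3.4.1, and 423 bp upstream of npp-6. In replicate 1 the distances were 236 bp and 411 bp, and in replicate 2 they were 223 bp and 398 bp. The shorter spd-5 transcript, F56A3.4.2, starts at 5175708, and relative to it the summit lay 698 bp upstream. The peak is thus upstream of both genes only if the shorter spd-5 transcript is taken.

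The strong summit of atx-2 and ecps-1 had a signal of 222 in replicate 1, 176 in replicate 2 and 392 in the conservative list, again with a score of 1000 in each. The ranks were 35 of 561, 25 of 467 and 26 of 882. It was higher than the spd-5 and npp-6 summit in both replicates and in the pooled lists. The peak was narrow in every list, with 155 bp in replicate 1, 123 bp in replicate 2 and 189 bp in the conservative list. Its summit stood at 10461330 in the pooled lists and replicate 1 and at 10461327 in replicate 2.

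This summit lay in the intergenic stretch, 59 bp upstream of the atx-2 gene start and 779 bp upstream of ecps-1. Ensembl annotates 4 transcripts of atx-2. The nearest start belongs to D2045.1d.1, and the starts of D2045.1a.1, D2045.1c.1 and D2045.1b.1 lay 298 bp, 383 bp and 3126 bp downstream of the summit. For ecps-1 the single annotated transcript starts at the gene start.

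**Figure D1:**
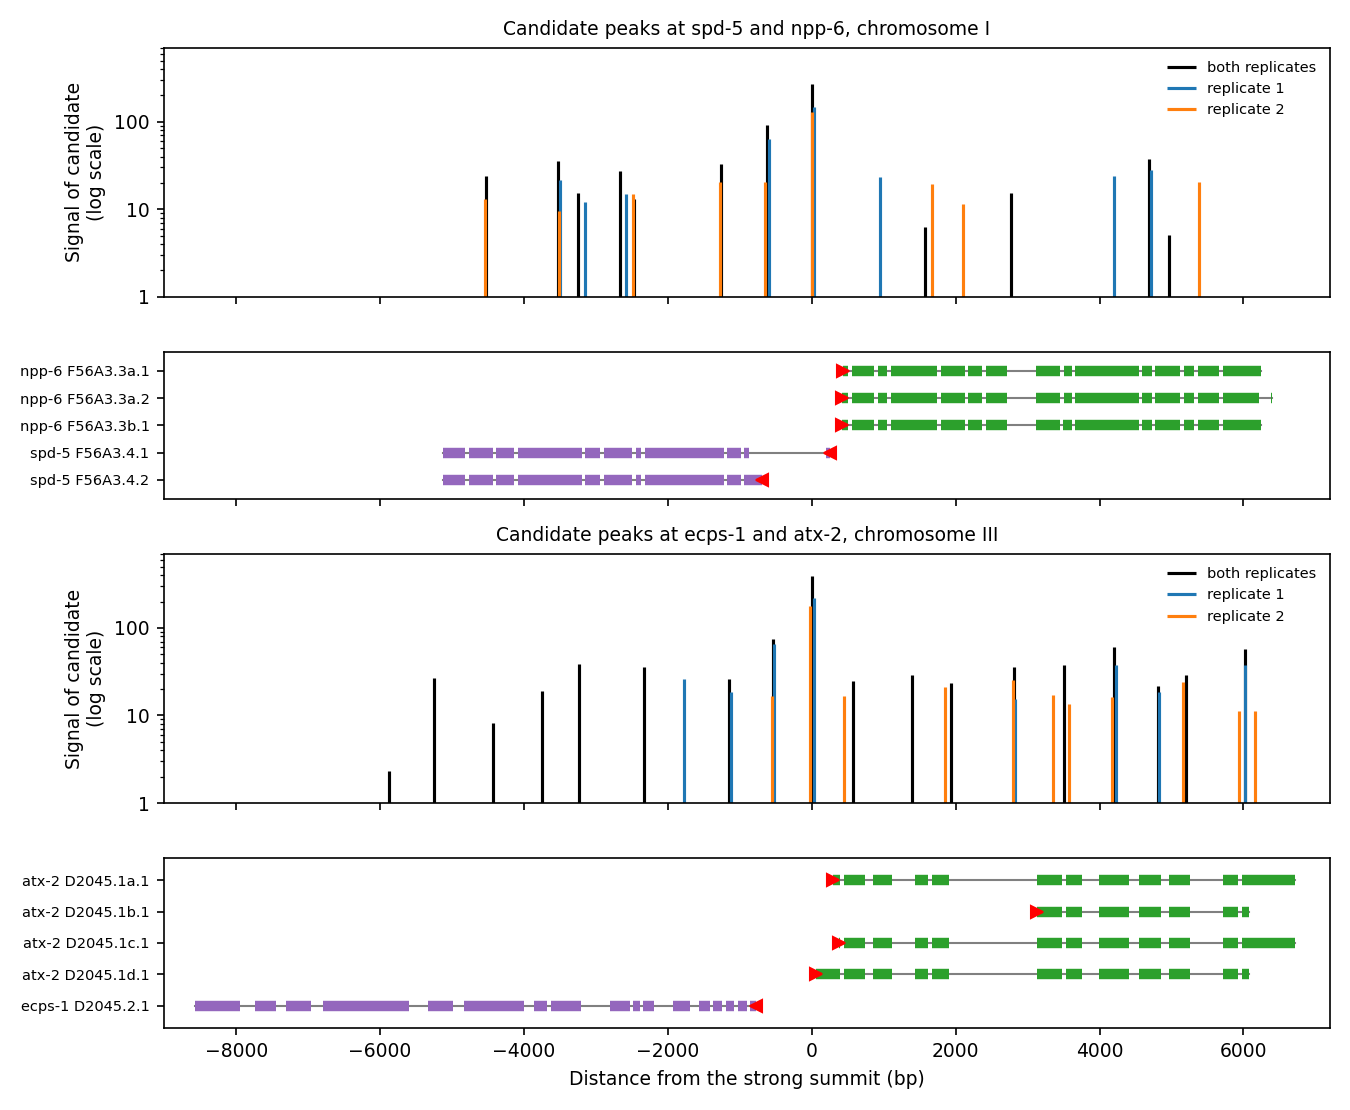
Candidate peaks of the conservative, replicate 1 and replicate 2 ranked lists along each gene pair, with signal on a log axis against distance from the strong summit in bp; replicate lines are shifted 25 bp to either side so that they can be seen, and the panels underneath show annotated transcripts with exons as thick bars and starts as red arrowheads. The strong summits, 267 at spd-5 and npp-6 and 392 at atx-2 and ecps-1, stand above all other candidates of their stretch, and the first lies in the long intron of one spd-5 transcript.

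Each pair also had a second, weaker summit. At spd-5 it lay at 5175784, 622 bp from the strong one, with a signal of 64.2 in replicate 1, 20.6 in replicate 2 and 91.1 in the pooled lists. It passed the threshold in the other pooled list alone, with a score of 850 and rank 555 of 1042. The replicates did not place it alike, since it ranked 517 of 55301 candidates in replicate 1 and 11296 of 45180 in replicate 2. The summit fell just outside the window of both genes, 870 bp downstream of the spd-5 gene start and 1045 bp upstream of npp-6. It was, however, 76 bp upstream of the start of the shorter spd-5 transcript.

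Between ecps-1 and atx-2 the second summit lay at 10460794, 536 bp from the strong one, with a signal of 65.6 in replicate 1, 16.7 in replicate 2 and 75.7 in the pooled lists. It was nearer to ecps-1, 243 bp upstream of that start, than to atx-2, 595 bp upstream. It passed the threshold in replicate 1, with a score of 873 and rank 405 of 561, and in the other pooled list, with a score of 978 and rank 800 of 1042. In replicate 2 it ranked 20809 of 45180 candidates with a score of 8.

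The strong summit exceeded the second by 2.29 times in replicate 1 and 6.18 times in replicate 2 at spd-5 and npp-6. At atx-2 and ecps-1 the ratios were 3.38 in replicate 1 and 10.6 in replicate 2. The strong summits thus had similar ranks in both replicates, and the second summits were prominent in replicate 1 only. A further summit nearby was not rare. Of the 1042 peaks of the other pooled list, 15.5% had another summit within 1000 bp, and so did 13.0% of its 308 promoter peaks with no small RNA gene within 100 bp.

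**Figure D2:**
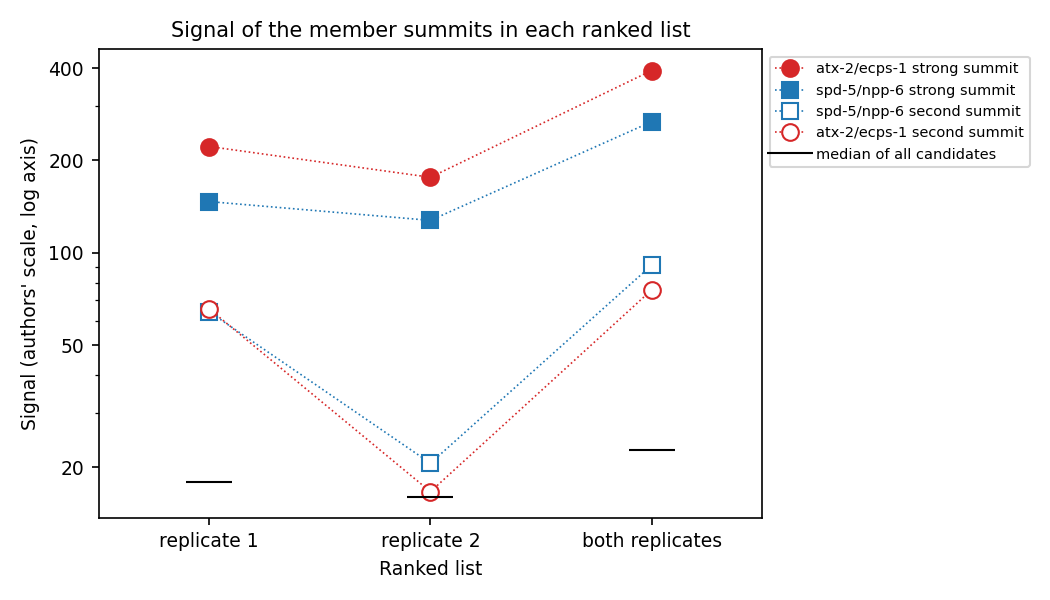
Signal on a log axis of the strong summits (filled) and the second summits (open) in the ranked lists of replicate 1, replicate 2 and both replicates, with bars for the median of all candidates. The strong summits stay at 128 or more in each list, while the second summits reach 64.2 and 65.6 in replicate 1 and 20.6 and 16.7 in replicate 2, where the median candidate is at 16.1.

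Along the whole of each pair the remaining candidates were weaker than the second summit in the conservative ranked list. This did not hold in replicate 2 at ecps-1 and atx-2, where the second summit had 16.7 and a candidate in an atx-2 intron had 25.6. At spd-5 and npp-6 in replicate 2 the second summit, with 20.6, was barely above the next candidate, with 20.4. The conservative ranked list had 12 candidates in the 11527 bp from the end of spd-5 to the end of npp-6, and the third strongest, in a coding exon of npp-6, had a signal of 37.4. It had 18 candidates in the 15299 bp from the end of ecps-1 to the end of atx-2, and the third strongest, in a coding exon of atx-2 4198 bp from the strong summit, had a signal of 60.1 and rank 2341. Another in an atx-2 coding exon followed with 57.4 and rank 2866, so both stood well above the median and not far below the second summit, with 75.7. The median candidate of that list had a signal of 22.8, and neighbouring candidates lay a median of 659 bp apart, so a low candidate near a gene is common. Within the windows, replicate 1 had a further candidate 497 bp downstream of the npp-6 start (672 bp upstream of spd-5) with a signal of 23.3, and replicate 2 had one 412 bp downstream of atx-2 with 16.5. At ecps-1 both pooled ranked lists had a candidate 377 bp downstream with 26.1, and replicate 1 had one 362 bp downstream with 18.7. A candidate in the window was present at 67.9% of all protein-coding genes in the conservative ranked list, 74.3% in the other pooled one, 51.9% in replicate 1 and 51.7% in replicate 2.

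The next protein-coding genes on either side had no promoter summit in any thresholded list. These are hcp-6, which encodes a condensin subunit, and slx-1, a nuclease gene, around spd-5 and npp-6, and H04D03.4 and D2045.5 around ecps-1 and atx-2. Their starts lay between 6330 and 11258 bp from the strong summits.

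The members were then set beside other gene pairs read away from each other with starts at most 1000 bp apart. Of 1697 such pairs, 98 (5.77%) shared a promoter summit in the conservative list, 6.48% in the other pooled list, 3.95% in replicate 1 and 2.71% in replicate 2. By signal, the atx-2 and ecps-1 pair ranked 2 of the 98 and the spd-5 and npp-6 pair ranked 12, against a median of 107. The distances between starts differed widely: 11.2% of all pairs were as close as spd-5 and npp-6, and 87.9% were as close as ecps-1 and atx-2. Of the 98 shared summits, 82 (83.7%) lay between the starts, as that of atx-2 and ecps-1 did. The other 16 lay outside that interval, as that of spd-5 and npp-6 did. These are descriptions, since the members were picked for their signal.

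In the conservative list, 372 of the 882 peaks lay at genes for small RNAs, so the members were also placed among the 266 promoter peaks that had no tRNA, snoRNA, snRNA, miRNA or other non-coding RNA gene within 100 bp. The atx-2 and ecps-1 peak ranked 3 and the spd-5 and npp-6 peak ranked 12 of these, whose median signal was 94.8. Both members were in both replicate thresholded lists, as were 64 of the 266 (24.1%), while 113 were in neither. The ratio of replicate 1 to replicate 2 signal was 1.26 at atx-2 and ecps-1 and 1.15 at spd-5 and npp-6, against a median of 1.35 and quartiles of 1.09 and 1.60 over the 251 peaks found in both ranked lists. The summits of the replicates were 3 bp and 13 bp apart at the members, against a median of 26 bp. The share in both replicate lists and these medians cover the whole class, most of it weaker than the members. They were not taken for strong peaks alone, so they do not set the members apart from other strong peaks. The summit at spd-5 lay downstream of the nearest start, which 43 of the 266 (16.2%) did. Both members were narrower than the usual 330 bp, as were 19 of the 266 in all (7.14%) and 17 of the 20 strongest, so that narrowness went with signal in this class.

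**Figure D3:**
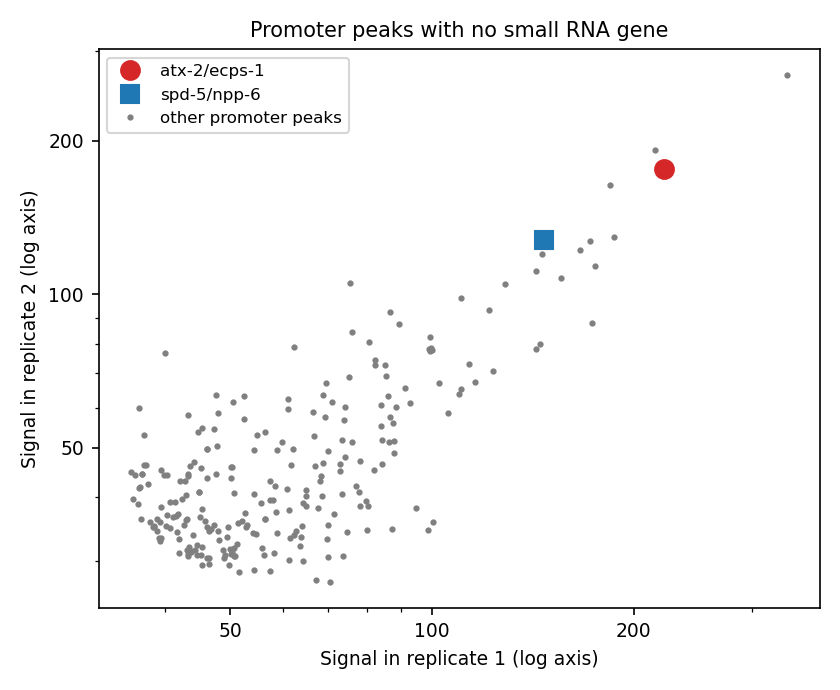
Signal in replicate 2 against signal in replicate 1, both on log axes, for the 251 promoter peaks with no small RNA gene that were matched in both ranked lists. The atx-2 and ecps-1 peak (222 and 176) and the spd-5 and npp-6 peak (147 and 128) lie at the upper end of the cloud.

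The peaks most like the members were sought among the other 250 by the distance between log2 signals in the conservative list and the 2 replicate ranked lists. For spd-5 and npp-6 the nearest was the peak between C16C10.4 and rnf-121, with a signal of 272, followed by that between tasp-1, which encodes a threonine aspartase, and K01G5.10, with 269.6, and that in an intron of K05C4.2, with 290.3. The distances were 0.0946, 0.20 and 0.22 on the log2 scale. For atx-2 and ecps-1 the nearest was the peak at idhg-1, an isocitrate dehydrogenase subunit gene, and mlcd-1, which encodes malonyl-CoA decarboxylase, with a signal of 401 and a distance of 0.13. The peak of ears-2, a mitochondrial glutamyl-tRNA synthetase gene, and uncp-18 followed with a signal of 346 and a distance of 0.34, and that of hach-1 and nmad-1 with 323 and 0.58. All but the K05C4.2 summit lay upstream of the nearest start, between 21 and 182 bp from it, and the K05C4.2 summit lay 352 bp downstream.

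Genes of the same broad categories as the members were drawn from 4 lists chosen with earlier results of these data known. In the conservative list, 4 of 22 annotated centrosome and centriole genes other than spd-5 had a promoter summit (18.2%), as did 5 of 26 nucleoporin genes other than npp-6 (19.2%), 3 of 38 RNA-binding genes of the germ line and early embryo other than atx-2 (7.89%) and 1 of 37 proteasome genes other than ecps-1 (2.70%). The share over all protein-coding genes was 2.45%. The lists are short and were not tested. Of these 13 genes, 10 had another protein-coding gene whose window held the same summit, so the summit may belong to either. For 3 of the 13 the summit was in both replicate thresholded lists, and for 6 it was in neither. In replicate 1 the counts of the lists were 1 of 22, 2 of 26, 2 of 38 and 1 of 37 (4.55%, 7.69%, 5.26% and 2.70%). The share over all protein-coding genes there was 1.53%. In replicate 2 they were 1, 2, 1 and 0 of the same numbers (4.55%, 7.69%, 2.63% and 0%), against 1.21% of all protein-coding genes.

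Among the centrosome genes, sas-5, needed for centriole duplication, had a signal of 140 in the conservative list, with 75.3 in replicate 1 and 68.9 in replicate 2, and a summit 85 bp upstream of the start. The summits of sas-6, the centriolar cartwheel protein gene, sas-4, another centriole assembly gene, and tbg-1, which encodes gamma-tubulin, had 84.9, 70.1 and 87.6 and were in neither replicate list. Those of sas-4 and tbg-1 were also missing from the other pooled list. All 4 summits lay upstream of the start.

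Among the nucleoporins, npp-18, a further gene of the Y complex, had the highest signal, 186, with 99.3 in replicate 1 and 82.3 in replicate 2. The others were npp-8 with 142, npp-14 with 113, npp-19 with 86.5 and npp-10, which also supplies a Y complex subunit, with 82.1. The npp-8 summit was in the replicate 2 thresholded list only and that of npp-14 in replicate 1 only. Those of npp-19 and npp-10 were in neither. The Y complex had summits at 2 of its 8 annotated genes other than npp-6, against 2.45% of all protein-coding genes. These are npp-18 and npp-10, already counted among the nucleoporins, and the npp-10 summit also lay in the window of cyk-3. In each replicate thresholded list the count was 1 of 8, npp-18, against 1.53% of all protein-coding genes in replicate 1 and 1.21% in replicate 2. This small set was not tested. Among the RNA-binding genes, larp-1 had 122, ifet-1 had 95.2 and mex-1 had 91.0, and the ifet-1 summit lay at a small RNA gene and was shared with the ribosomal protein gene rps-1. The larp-1 summit was in both replicate thresholded lists, that of ifet-1 in replicate 1 only and that of mex-1 in neither. The only proteasome gene was rpn-7, which encodes a subunit of the regulatory lid, with 112, and its summit also lay in the window of F49C12.9. That summit was nearer to F49C12.9, 34 bp upstream of its start, than to rpn-7, 382 bp upstream. The summit was in the replicate 1 thresholded list only.

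The bases under the summits were read 100 bp to each side. GC content was 54.2% at the strong and 31.8% at the second atx-2 and ecps-1 summit, and 49.8% and 47.8% at the spd-5 and npp-6 summits, against a median of 42.8% over the 266 promoter peaks and 32.8% over all promoters. RefSeq marks 60.2% and 73.6% of the spd-5 and npp-6 windows as repeats or low-complexity sequence, and 0% and 57.7% of those at atx-2 and ecps-1, against a median of 29.4% over the 266.

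Of 10 motifs sought on both strands, the T-box core GGTGTG was in none of the 4 windows. It was in 7.89% of the 266 promoter peaks and in 5.33% of all promoters, taken here as windows of the same length that end at the gene start. None of the 10 was in either window of spd-5 and npp-6. The strong atx-2 and ecps-1 window held CGCGCA once, at 26.3% of the promoter peaks and 4.27% of promoters, and GGGCGG once, at 17.7% and 5.97%. It also held the GAGA repeat (GAGAGA), which 20.3% of promoter peaks and 16.3% of promoters had, the E-box, at 53.0% and 51.2%, and the splice acceptor word, at 24.1% and 37.1%. The second window held CTGCGTC once, at 7.52% of the promoter peaks and 3.25% of promoters, together with the GAGA repeat, the GATA site, at 25.9% of promoter peaks and 45.6% of promoters, and the splice acceptor word. The remaining motifs sought were a longer T-box site and the E2F site. A match is a string of letters, and its absence says only that those letters are not within this window.

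The strong windows of the 2 pairs had a stretch in common, found after the data had been seen. Over 27 bp, III:10461310-10461336 and I:5176437-5176463 were identical at 20 positions, with no gap and on the same strand. The alignment scored 13, counting 1 for each identical and minus 1 for each differing position, and the next best alignment of the windows scored 8. The atx-2 and ecps-1 summit lay inside the stretch in all lists, 4 to 7 bp from its middle. The spd-5 and npp-6 summit lay 31 bp from its edge in the pooled lists, 19 bp in replicate 1 and 6 bp in replicate 2.

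Close copies of the stretch were more frequent at other strong promoter peaks than at weak ones or at promoters in general, a comparison that was not tested. With at most 4 of the 20 letters different, it was within 100 bp of the summit at 17 of the other 264 promoter peaks with no small RNA gene (6.44%, Clopper-Pearson 95% interval 3.80 to 10.1), 2 of the 372 peaks at small RNA genes (0.538%) and 14 of 19973 promoters (0.0701%). The promoter windows end at the gene start instead of lying around a summit, and that of atx-2 is among them. Their median GC content was also lower, 32.8% against 42.8% at the 266 promoter peaks. Of the 17, 16 were among the 132 stronger peaks, with signals of 94.7 or more, and 1 among the 132 weaker. Most strong peaks lacked the stretch, since 12.1% of the 132 stronger and 4 of the 20 strongest had it. The intervals cover counting error only, and peaks that carry copies of one repeat are not independent.

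A single repeated sequence accounted for 8 of the 17. It differs from the 20 letters in common at 1 position and occurs 19 times in the genome, 10 of them at a summit of the conservative list, among them the npp-18 peak. Of the 19 copies, 18 form 9 pairs in which a minus-strand copy precedes a plus-strand copy by 221 to 3875 bp. The remaining copy lies 221 bp from a near-copy at the unc-85 peak, the same distance as in the closest of these pairs, and the near-copy differs from it at 1 of 27 bases. Without peaks within 300 bp of a copy, which leaves out unc-85 too, 8 of 255 promoter peaks (3.14%) had the stretch, all 8 among the 124 stronger and none among the 131 weaker that were left. Median GC content was 43.8% in the 132 stronger and 40.8% in the 132 weaker peaks.

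Of these 8 peaks, 6 are shown next with the atx-2 and ecps-1 copy, so that their letters can be compared. Capitals mark letters equal to the atx-2 and ecps-1 copy, and each line is written in the direction of that copy.
atx-2/ecps-1, III:10461310-10461336, plus strand: TTGCGAAACCCTGTGCGGCGCACTTGC
ears-2/uncp-18, IV:390490-390516, minus strand: TTGCGAAAagCcGcGCGGCGCAtTgcg
C16A11.2/fbxc-44, II:4238091-4238117, plus strand: TTGCGAAAatgcGTGCGGCGCgtTgca
Y39A3CL.7/pvf-1, III:1824689-1824715, plus strand: aaaCtAAACCCcGTGCGGCGCtCTTGC
R148.3, III:3175172-3175198, plus strand: TTGCGgAACaCcGTGCcGCttgCTTGC
gtsf-1, IV:16865705-16865731, plus strand: TTGCaAAACCCcGTGCGGCaCAaTTGC
F49C12.9/rpn-7, IV:9316210-9316236, plus strand: aTGaatAAaaCcGTGCGGCGgAaTTGC

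The 6 other copies equalled that of atx-2 and ecps-1 at 18 to 23 of 27 positions. The signals of these peaks were 346 at ears-2 and uncp-18, 169 at C16A11.2 and fbxc-44, 155 at Y39A3CL.7 and pvf-1, 140 at R148.3, 115 at gtsf-1 and 112 at F49C12.9 and rpn-7. The remaining peaks, both on chromosome I, were that of spe-48 and Y51F10.11, with 296, and the one of dnj-29, fld-1 and ndua-2, with 194. All 8 summits lay upstream of the nearest start. The copies at these 6 peaks differ from the repeated sequence at 7 or more of 27 bases. The atx-2 and ecps-1 copy itself differs from the repeated sequence at 5 of 27 bases. From the spd-5 and npp-6 copy it differs at 7 of 27. The ears-2 and uncp-18 peak was also the second most alike to atx-2 and ecps-1 in signal. The other most alike peaks of both pairs lacked the stretch. Their fewest differences from the letters in common were 7 at idhg-1 and mlcd-1 and 5 at hach-1 and nmad-1. Among the peaks most like spd-5 and npp-6 they were 8 at C16C10.4 and rnf-121, 9 at tasp-1 and K01G5.10 and 5 at K05C4.2.

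**Figure D4:**
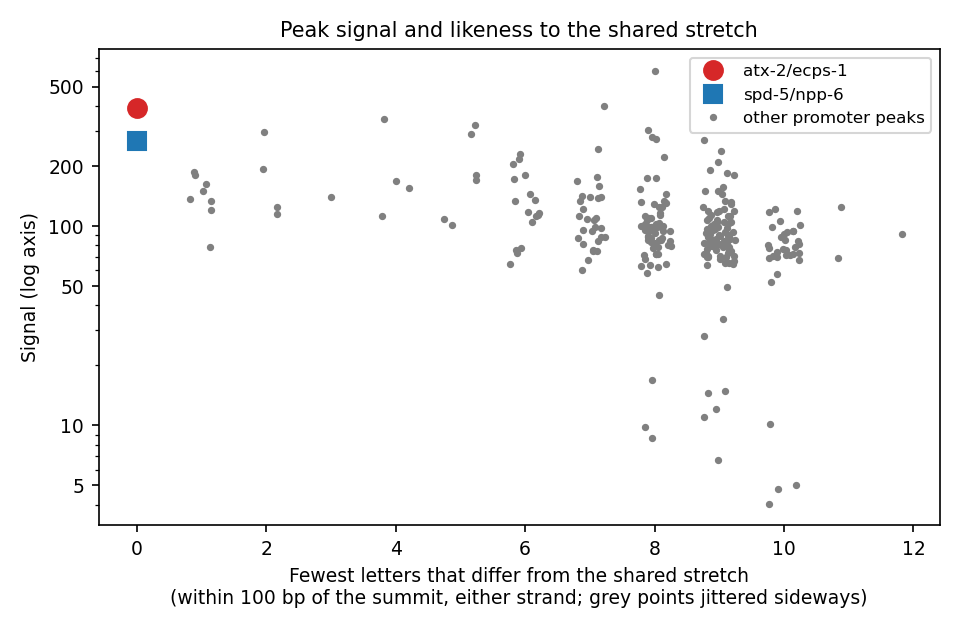
Signal in the conservative list, on a log axis, against the fewest letters by which any position within 100 bp of the summit differs from the 20 letters in common, for the 2 member peaks, at 0 by construction, and the other 264 promoter peaks with no small RNA gene. Of the 17 other peaks at 4 or fewer differences, 16 have a signal of 94.7 or more.

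Over the nuclear genome, the exact letters occurred 2 times, at the members, where they occur by construction, and nowhere else. With 1 to 4 differences and more than 300 bp from any copy of the repeated sequence there were 88 matches, of which 14 (15.9%) lay within 100 bp of a summit of the conservative list, at 13 peaks. Such positions make up 0.177% of the genome, a share that takes no account of base composition. Median GC content was 45.8% within 100 bp of the summits of that list, against 32.8% over all promoters. The contrast was not tested. The remaining 74 matches had no such summit, so the letters alone did not mark a peak.

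The windows of the strong and the second spd-5 and npp-6 summits also resembled each other, on opposite strands. A segment of 60 bp at I:5176306-5176365 was identical at 55 positions (91.7%) to the reverse complement of a segment in the second window, with 39 bp exact, and these 39 bases occur at 41 places in the genome. Within the segment, 88.9% of positions equalled the position 15 bp on. At atx-2 and ecps-1 the longest such exact match was 8 bp. Whether reads from these repeats could be placed uniquely was not tested, since the lists hold no reads.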

How the data were processed

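Binding of tagged TBX-11 was measured by ChIP-seq in 2 replicates. The signal values and scores of the 8 peak lists were made by the authors and are deposited on assembly ce11. The lists of a replicate come from its own alignments and the pooled lists from both, per the file descriptions, all against the same control alignments. A further input of the thresholded lists, the aligner, the peak caller and the read filters are not given in the sources used here. Each pooled thresholded list was matched to the pooled ranked list that held all its peaks unchanged. No counts are in the files, so depth per sample is unknown. In the labels nothing says that the 2 biological replicates share a culture or come from separate ones.

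The members, related lists and motifs were chosen with earlier results of these data known, and the shared stretch was found after they had been seen. Peaks were assigned to genes by summit position in the Ensembl release 115 annotation. Annotated starts in this animal often mark trans-splicing positions rather than transcription starts. Named genes are the 4 members, list genes with a promoter summit, the 3 most alike promoter peaks of each pair, the neighbouring genes and, outside that rule, the peaks with the shared stretch. Ranks are by signal within a list. Shares carry Clopper-Pearson 95% intervals where printed. No test was run, because the members were picked for their peaks. The window and alignment code was tested on simulated data. Python 3.11.15, numpy 2.4.6, pandas 2.3.3, scipy 1.17.1 and matplotlib 3.10.9 were used. The nucleoporin list has 2 names that the annotation lacks. Alternatives were the other lists, narrower windows, transcript starts, other pair distances and other numbers of differing letters.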

Additional observations from a re-analysis of the deposited data

How the results depend on the processing

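No paired analysis was possible because the study has 1 group and no test between groups. All 4 genes kept a promoter summit in the other thresholded list, in each replicate list, among main peaks no weaker than the median, with any overlap of the interval and with every transcript start. A window from 500 bp upstream to 250 bp downstream kept 3 genes, and one from 250 bp upstream to 50 bp downstream kept 1, since the summits lie farther out. The rank of the spd-5 and npp-6 peak, top 10.1% in the main list, was top 8.54% in the other thresholded list, 16.7% to 18.7% in the replicate lists, and 0.147% and 0.123% in the pooled ranked lists. That of the atx-2 and ecps-1 peak, top 2.95%, was 5.35% to 6.24% in the replicates, and 0.0604% and 0.0504% in the pooled ranked lists. The lists differ in length, and both peaks had the same rank, 89 and 26, in the 2 pooled thresholded lists. The share of genes with a promoter summit, 2.45%, was 2.75% in the other list, 1.28% for peaks no weaker than the median, 1.67% and 0.981% with the narrower windows, 2.68% with every transcript start, and 1.21% to 1.53% in the replicates. The share of pairs with a shared summit, 5.77%, was 4.30% with starts up to 2000 bp apart and 2.71% to 3.95% in the replicates. List genes with a summit numbered 13 in the main list, 12 in the other list (11 of them shared) and 4 to 6 in the replicates. The share of other promoter peaks with the shared stretch, 6.44%, was 15.2% with 6 differences and 3.52% without peaks at the repeated copy and 3.14% without those within 300 bp of one, settings chosen after seeing the data, as was the use of every transcript start. Unknown depth limits what the absence of a peak in a list can show.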
